A study of Mus musculus with 9 samples.

Results

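The 10 genes described here encode the surfactant proteins and the enzymes, transporters and organelle proteins with which alveolar type 2 cells make and store pulmonary surfactant. They were taken by gene name, for their known roles, from a table of 21950 genes, and each had 1 row. RNA was sequenced from MLE-12, a mouse lung epithelial line at passage 17, in 9 libraries of 3 groups with 3 libraries each. The first group received vesicles of syndecan-1 deficient donors, the second received vesicles of wild-type donors, and the third, the control, received regular medium. All vesicle donors had been injured with bleomycin, a drug that produces lung injury and fibrosis, and the vesicles, membrane particles that carry protein and RNA, were collected from their bronchoalveolar lavage fluid. No group with vesicles of uninjured mice or with a mock preparation was analysed here, and the labels give neither the vesicle dose nor the length of treatment. Nor do they say whether the 3 libraries of a group came from separate cultures, donors or preparations, so p-values measure the spread between these libraries, which may be technical.

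Pulmonary surfactant is a lipid and protein film that lowers surface tension in the alveolus. Type 2 cells make its phosphatidylcholine, load it with surfactant proteins B and C into lamellar bodies, which are lysosome-related organelles, and secrete it, while surfactant proteins A and D are collectins that bind microbes. MLE-12 cells came from lung tumours of transgenic mice in which the surfactant protein C promoter drives the large T antigen of a simian virus, so the line is a transformed cell and not a resting type 2 cell. All 9 libraries come from this 1 line, and syndecan-1, a heparan sulfate proteoglycan, was missing from the donors and not from the recipient cells.

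Expression is given as RPKM, reads scaled to transcript length and library size, so that levels can be compared between genes. Worked out from the RPKM, the libraries held 24353255 to 33558660 reads. Tests used limma on log2(RPKM + 1) over the 11125 genes that averaged 1 RPKM or more, and a gene was called at an adjusted p under 0.05. The whole table moved widely: 8370 genes were called with deficient vesicles and 8352 with wild-type vesicles, each against control, and 2042 between the preparations. The count between the preparations depended on which libraries entered the fit. It was 0 without wild-type replicate 1, wild-type replicate 2 or deficient replicate 2, and 2 without deficient replicate 3. Without deficient replicate 1 it was 1897, and without wild-type replicate 3 it was 4686. Leaving out control replicate 1, 2 or 3, which are not compared here but share the estimate of the spread, gave 733, 909 and 704. With only the 2 groups compared it was 0. After rescaling all libraries by median-of-ratios factors, higher genes made up 50.1% of calls with deficient vesicles and 50% with wild-type vesicles, against 64.8% and 60% before. This scaling sets the median log2 difference near 0, so a near-even split largely follows from the method and does not show which scale is right. The median log2 difference of all tested genes before rescaling was 0.132 with deficient vesicles and 0.09 with wild-type vesicles, both against control.

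The genes that could be tested rose with both vesicle preparations, and the remaining ones were scarcely transcribed in any group. Sftpb, Sftpc, Sftpa1, Lpcat1 and Abca3 entered the test, and the other 5 genes, Sftpd, Napsa, Slc34a2, Lamp3 and Lyz2, had a mean RPKM under 1. With deficient vesicles, 5 of the 10 genes, all 5 that were tested, were called higher and 0 lower against control. Of all tested genes 48.8% were called higher and 26.5% lower, or 37.8% and 37.7% after rescaling. With wild-type vesicles, 5 of the 10, again all 5 that were tested, were called higher and 0 lower. Of all tested genes 45.0% were then called higher and 30.0% lower, or 37.9% in each direction after rescaling. Both comparisons use the same 3 control libraries. Between deficient and wild-type vesicles, 0 of the 5 tested genes were called in either direction. Of all tested genes 12.9% were called higher and 5.43% lower, or 8.15% and 8.42% after rescaling. Rescaling left the counts of the set unchanged in each comparison. Sftpa1 passed the filter only through the vesicle-treated libraries, so its entry into the test already required a difference. Separation of treated from control libraries is described below gene by gene, and its share over all tested genes was not counted. More cells that transcribe a gene and more of its RNA per cell cannot be told apart in these bulk libraries.

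**Figure D1:**
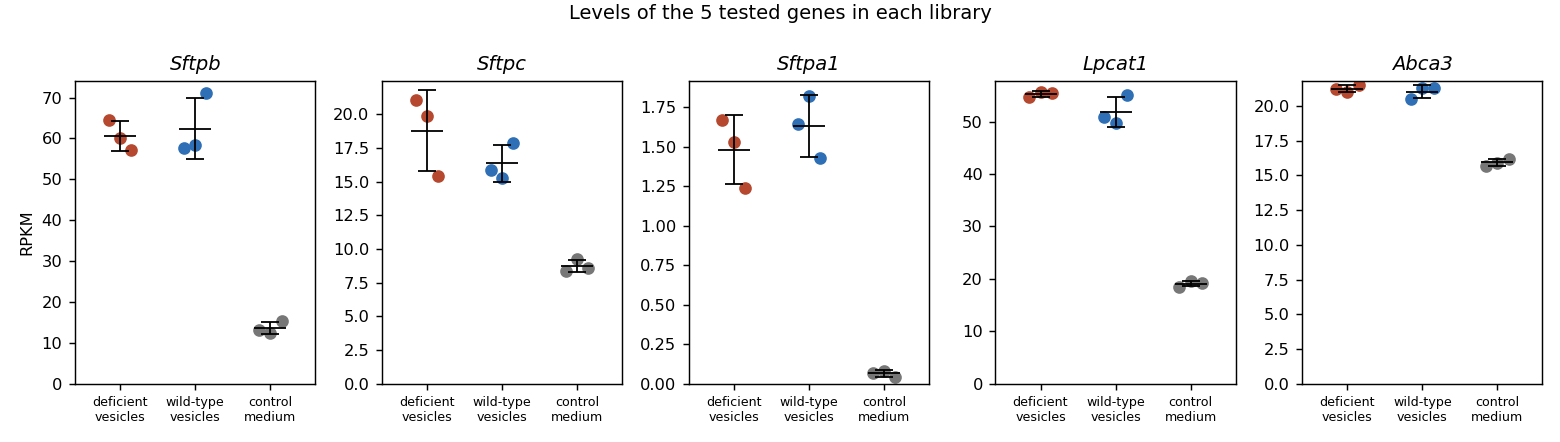
RPKM of the 5 tested genes (vertical axes, each starting at 0) in cells with syndecan-1 deficient vesicles, with wild-type vesicles and in control medium. Points are libraries and black bars are the mean with the SD over 3 libraries. In each panel the 6 vesicle-treated libraries lie above the 3 controls, as for Sftpb, with 57.1 to 71.1 RPKM against 12.3 to 15.3 RPKM. How many of all tested genes separate in this way was not counted. Of all tested genes 48.8% were called higher with deficient and 45.0% with wild-type vesicles. Sftpa1 passed the filter only through the vesicle-treated libraries.

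Sftpb encodes surfactant protein B, a small hydrophobic protein that is essential for the surfactant film and for the formation of lamellar bodies. The gene (ENSMUSG00000056370) lies on chromosome 6 at 72304610 to 72314371 on the plus strand of GRCm38. Its promoter is shown because it is a classical target of NKX2-1, also called thyroid transcription factor 1, and Sftpa1 is shown beside it as the other gene of the set whose window held the same motif. Both sequences are the 250 bases before the RefSeq start (GRCm38.p6, plus strand), chr6:72304360-72304609 for Sftpb and chr14:41131538-41131787 for Sftpa1, with motif matches in capitals.
Sftpb: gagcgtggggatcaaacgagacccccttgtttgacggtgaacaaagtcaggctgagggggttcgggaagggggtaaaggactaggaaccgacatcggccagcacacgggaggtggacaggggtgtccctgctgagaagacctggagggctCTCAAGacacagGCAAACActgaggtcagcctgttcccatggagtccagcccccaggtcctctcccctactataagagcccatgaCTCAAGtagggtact
Sftpa1: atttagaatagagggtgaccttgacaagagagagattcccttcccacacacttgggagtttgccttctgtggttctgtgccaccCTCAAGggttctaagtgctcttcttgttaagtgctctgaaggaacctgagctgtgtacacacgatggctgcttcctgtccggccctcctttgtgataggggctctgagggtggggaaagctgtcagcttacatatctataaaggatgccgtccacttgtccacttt
In the Sftpb window the motif CTCAAG of NKX2-1 stood at -100 to -95 and at -15 to -10 from the start, and GCAAACA, the reverse strand of the FOXA motif TGTTTNC, at -88 to -82. The Sftpa1 window held CTCAAG at -166 to -161. On either strand CTCAAG occurred in 13.3% of 32851 windows of this length and the FOXA motif in 17.8%, and 0.998% of windows held CTCAAG more than once. Windows were found for 7 of the 10 genes, and not for Sftpc, Sftpd and Napsa. Among the other windows, Slc34a2 held the C/EBP motif TTGCNNAA at -48 to -41, which 9.56% of windows hold. Lamp3 held the FOXA motif at -162 to -156 and at -92 to -86, and the STAT motif TTCNNNGAA, present in 7.02% of windows, at -181 to -173. The GATA motif AGATAA, in 9.99% of windows, matched none of the 7, and no motif match overlapped another except for C/EBP and STAT matches that read alike on both strands.

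Sftpb stood at 64.6, 60.1 and 57.1 RPKM with deficient vesicles, at 57.7, 58.4 and 71.1 RPKM with wild-type vesicles, and at 13.2, 12.3 and 15.3 RPKM in control. Every vesicle-treated library lay above every control, and the vesicle groups overlapped, with wild-type replicate 3 the highest of all. Its mean was 60.6 ± 3.8 RPKM with deficient vesicles and 13.6 ± 1.6 RPKM in control (SD, n = 3 each), 4.46 times as high (log2 fold change 2.08 ± 0.095 SE, limma adjusted p = 2.43e-08). With wild-type vesicles the mean was 62.4 ± 7.6 RPKM, 4.59 times the control (log2 fold change 2.12 ± 0.095, limma adjusted p = 2.23e-08). Among all 11125 tested genes these log2 fold changes ranked 29th from the highest with deficient vesicles and 31st with wild-type vesicles. By mean RPKM the gene was 832nd in the table with deficient vesicles and 798th with wild-type vesicles, against 4390th in control. Between deficient and wild-type vesicles the log2 difference was -0.037, with a 95% interval of -0.25 to 0.17 (limma adjusted p = 0.796).

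Sftpc encodes surfactant protein C, a membrane-spanning lipopeptide made by type 2 cells. The mouse gene lies on chromosome 14 at 70520949 to 70524081 on the minus strand (ENSMUSG00000022097). The libraries held 21.1, 19.9 and 15.4 RPKM with deficient vesicles, 15.9, 15.3 and 17.9 RPKM with wild-type vesicles, and 8.36, 9.23 and 8.6 RPKM in control. All 6 vesicle-treated libraries were above the controls, and deficient replicate 3 lay among the wild-type values. Sftpc averaged 18.8 ± 3 RPKM with deficient vesicles and 8.73 ± 0.45 RPKM in control (SD, n = 3 each), which is 2.15 times as high (log2 fold change 1.01 ± 0.1 SE, limma adjusted p = 6.46e-06). It averaged 16.4 ± 1.3 RPKM with wild-type vesicles, 1.88 times the control (log2 fold change 0.84 ± 0.1, limma adjusted p = 2.76e-05). The log2 difference between deficient and wild-type vesicles was 0.18 (95% interval -0.047 to 0.40, limma adjusted p = 0.221).

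Sftpa1 encodes surfactant protein A, a lung collectin, and lies on chromosome 14 at 41131782 to 41136452 on the plus strand (ENSMUSG00000021789). Reads were few: 137, 131 and 116 with deficient vesicles, 114, 133 and 108 with wild-type vesicles, and 6, 8 and 3 in control. As RPKM these are 1.67, 1.53 and 1.24 with deficient vesicles, 1.64, 1.82 and 1.43 with wild-type vesicles, and 0.0701, 0.0834 and 0.0419 in control. The gene was thus close to silent in control and low in the treated cells, whose lowest library still lay far above the highest control. The mean of 1.48 ± 0.22 RPKM with deficient vesicles was 22.8 times the control mean of 0.0651 ± 0.021 RPKM (SD, n = 3 each), and the mean of 1.63 ± 0.19 RPKM with wild-type vesicles was 25 times that mean. On the log2(RPKM + 1) scale, which understates changes of low genes, it rose by 1.22 ± 0.079 with deficient vesicles (SE, limma adjusted p = 2.74e-07) and by 1.30 ± 0.079 with wild-type vesicles (limma adjusted p = 1.73e-07). Tested on the recovered reads with voom, the log2 fold changes were 4.39 with deficient and 4.54 with wild-type vesicles. Deficient and wild-type vesicles differed by -0.085 (95% interval -0.26 to 0.091, limma adjusted p = 0.452).

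Sftpd encodes surfactant protein D, the other lung collectin, and its gene lies near Sftpa1 on chromosome 14 at 41172214 to 41185149, on the minus strand. It had 1, 1 and 0 reads with deficient vesicles and 0 reads in all 3 wild-type and all 3 control libraries. The level that 3 reads would give was 0.0297 RPKM with wild-type vesicles and 0.0256 RPKM in control. The 95% Poisson interval for a count of 0 over 3 libraries reached higher, to 0.0365 RPKM with wild-type vesicles and 0.0314 RPKM in control. These limits cover counting error only. The collectin genes therefore differed within the same libraries, with 384 pooled reads of Sftpa1 and 2 of Sftpd with deficient vesicles.

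Lpcat1 encodes the acyltransferase that remodels phosphatidylcholine into the dipalmitoyl form, the main surface-active lipid of surfactant. Its gene (chromosome 13, 73467197 to 73516422, plus strand) was at 54.6, 55.7 and 55.5 RPKM with deficient vesicles, 50.8, 49.7 and 55 RPKM with wild-type vesicles, and 18.5, 19.6 and 19.2 RPKM in control. The treated libraries all exceeded the controls by a wide margin, and wild-type replicate 3 was the wild-type library nearest to the deficient ones. Lpcat1 averaged 55.2 ± 0.61 RPKM with deficient vesicles and 19.1 ± 0.54 RPKM in control (SD, n = 3 each), 2.89 times as high (log2 fold change 1.48 ± 0.045 SE, limma adjusted p = 2.94e-09). The mean with wild-type vesicles was 51.8 ± 2.8 RPKM, 2.71 times the control (log2 fold change 1.39 ± 0.045, limma adjusted p = 4.82e-09). Deficient exceeded wild-type vesicles by 0.092 on the log2 scale (95% interval -0.0085 to 0.19, limma adjusted p = 0.161). Without wild-type replicate 3 this difference was 0.13 and called (adjusted p = 0.016). Over 18 alternatives the adjusted p ran between 0.016 and 0.971.

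Abca3 encodes the lipid transporter of the lamellar body membrane, which pumps phosphatidylcholine into the organelle. It lies on chromosome 17 at 24351950 to 24410201 on the plus strand. The libraries held 21.2, 21 and 21.5 RPKM with deficient vesicles, 20.5, 21.3 and 21.3 RPKM with wild-type vesicles, and 15.7, 15.9 and 16.2 RPKM in control. Again no treated library overlapped a control, but the step was small and the vesicle groups lay on top of each other. Abca3 averaged 21.2 ± 0.25 RPKM with deficient vesicles and 16 ± 0.26 RPKM in control (SD, n = 3 each), 1.33 times as high (log2 fold change 0.39 ± 0.036 SE, limma adjusted p = 3.38e-06). With wild-type vesicles it averaged 21 ± 0.44 RPKM, 1.32 times the control (log2 fold change 0.38 ± 0.036, limma adjusted p = 4.47e-06). These fold changes ranked 3190th and 3047th among the 11125 tested genes with deficient and with wild-type vesicles. The log2 difference between the preparations was 0.013 (95% interval -0.066 to 0.093, limma adjusted p = 0.802). An annotated transcript on the opposite strand, D330041H03Rik, overlaps 5553 bases of the gene span, introns included. Overlap of exons was not computed, and the strand setting of the read counting is not given in the sources used here. Reads of D330041H03Rik may therefore be counted in Abca3.

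**Figure D2:**
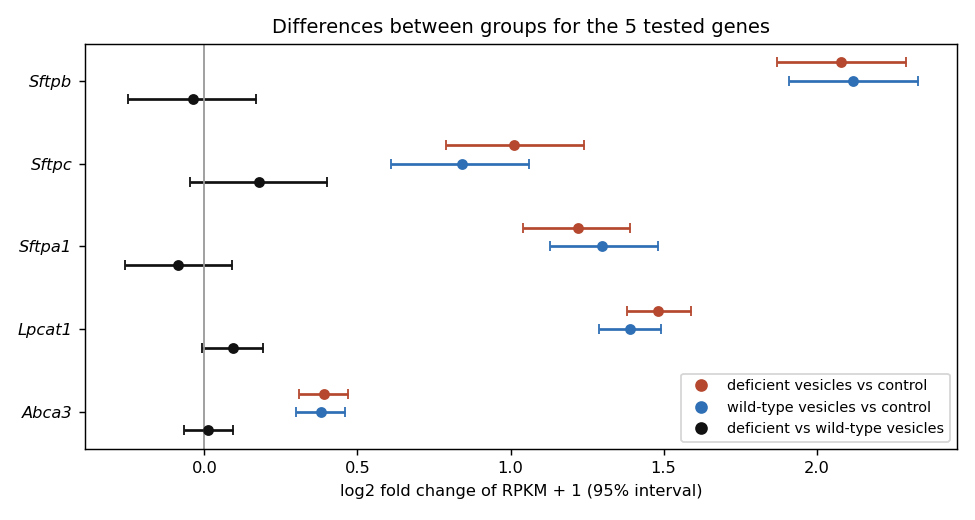
Log2 fold changes of RPKM + 1 (horizontal axis) with 95% intervals for the 5 tested genes, for deficient vesicles against control, wild-type vesicles against control, and deficient against wild-type vesicles. Intervals of both comparisons with control lie above 0 for each gene, from 0.38 for Abca3 to 2.12 for Sftpb, and intervals between the preparations include 0.

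The tested genes rose by unequal amounts, which ratios within a library describe. The pairs were not among the planned results. Their separation from control follows from the fold changes given above and is no separate support for them. The ratio of Sftpb to Sftpc was 3.06, 3.03 and 3.71 with deficient vesicles, 3.62, 3.81 and 3.98 with wild-type vesicles, and 1.58, 1.33 and 1.78 in control. The ratio of Lpcat1 to Abca3 was 2.57, 2.66 and 2.58 with deficient vesicles, 2.47, 2.34 and 2.58 with wild-type vesicles, and 1.18, 1.24 and 1.18 in control. For each ratio the treated libraries did not overlap the controls, and the vesicle groups overlapped each other. An exact two-sided permutation test of 3 against 3 libraries gave p = 0.1 for both ratios in both comparisons with control, the smallest value this size allows, and 0.15 after adjustment over 6 tests. Between deficient and wild-type vesicles the exact permutation p was 0.2 for each ratio, and 0.2 after adjustment. A ratio shows unequal change of its genes and not the change of either one.

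**Figure D3:**
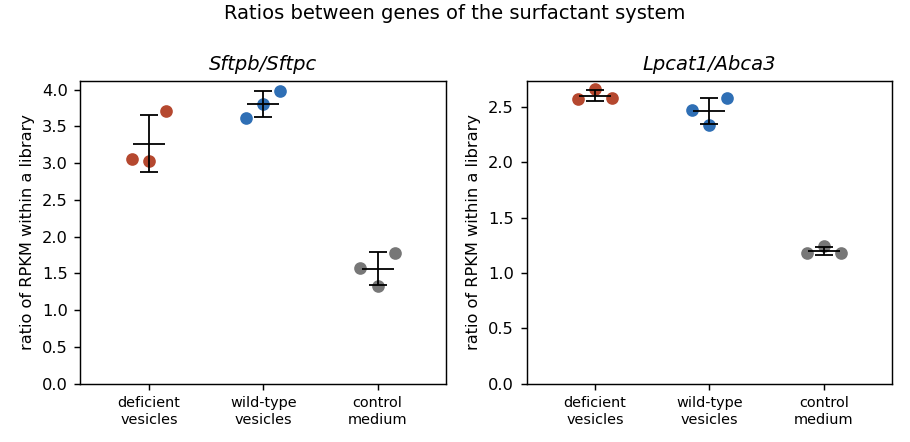
Ratio of RPKM within a library (vertical axes) for Sftpb over Sftpc and Lpcat1 over Abca3 in cells with deficient vesicles, with wild-type vesicles and in control medium. Points are libraries and bars are the mean with the SD over 3 libraries. The mean of Sftpb over Sftpc was 3.27 ± 0.38 with deficient vesicles, 3.8 ± 0.18 with wild-type vesicles and 1.56 ± 0.23 in control.

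The remaining genes stayed under 1 RPKM. Napsa, which encodes napsin A, an aspartic protease that cleaves the surfactant protein B precursor, had 0.324, 0.559 and 0.537 RPKM with deficient vesicles, 0.381, 0.381 and 0.581 RPKM with wild-type vesicles, and 0.403, 0.29 and 0.278 RPKM in control. The groups overlapped, on 94 pooled reads with deficient vesicles, 74 with wild-type vesicles and 62 in control. The annotated antisense gene Gm15396 overlaps 6895 bases of the Napsa span, introns included, where the annotated exons of Napsa add to 2660 bases. Overlap of exons was not computed, and without the strand setting reads of Gm15396 may be counted in Napsa. Lyz2, which encodes lysozyme and is transcribed by both type 2 cells and macrophages, had 0.221, 0.529 and 0.265 RPKM with deficient vesicles, 0.259, 0.216 and 0.27 RPKM with wild-type vesicles, and 0.264, 0.353 and 0.379 RPKM in control. Its groups overlapped as well, and 15.4% of its 50-base sequences also occur in Lyz1, so its reads are uncertain.

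Slc34a2, which encodes a sodium-phosphate cotransporter of the type 2 cell surface, had 9 pooled reads with deficient vesicles, 14 with wild-type vesicles and 19 in control. That corresponds to 0.0197 RPKM with deficient vesicles (95% Poisson interval 0.009 to 0.0374), 0.0366 RPKM with wild-type vesicles (0.02 to 0.0614) and 0.0428 RPKM in control (0.0258 to 0.0669). The intervals overlap, and the antisense gene Gm17182 overlaps 1502 bases of the locus. Lamp3, which encodes a membrane glycoprotein of lamellar bodies, had 1 pooled read with deficient vesicles, 1 with wild-type vesicles and 3 in control. No difference in Lamp3 was detectable at this depth. For Slc34a2 the deficient libraries, at 0.0183 to 0.0209 RPKM, lay below every control, at 0.0399 to 0.0476 RPKM. They also lay below every wild-type library, at 0.0234 to 0.0606 RPKM. These values rest on 3, 3 and 3 reads with deficient vesicles, 3, 3 and 8 with wild-type vesicles and 6, 8 and 5 in control. In a fit without the filter, none of Sftpd, Napsa, Slc34a2, Lamp3 and Lyz2 was called in any of the 3 comparisons, with limma adjusted p between 0.0905 and 1.

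**Figure D4:**
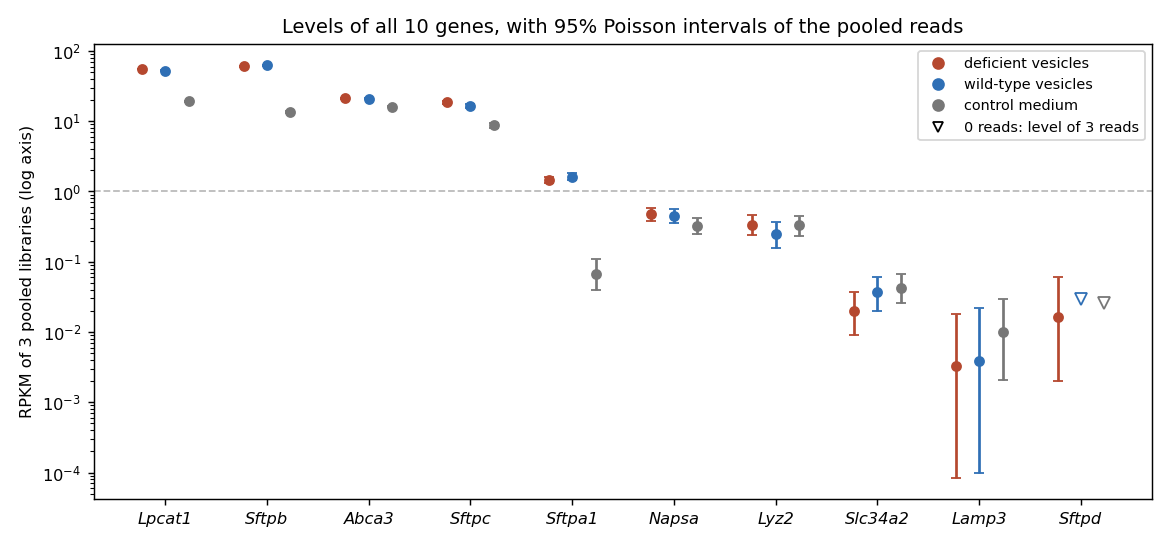
RPKM of the 3 pooled libraries of each group (log axis) for all 10 genes, with 95% Poisson intervals of the pooled reads, in deficient vesicles, wild-type vesicles and control. Open triangles mark groups with 0 reads, drawn at the level of 3 reads, and the dashed line is 1 RPKM. Lpcat1, Sftpb, Abca3 and Sftpc lie above 8 RPKM in every group, Sftpa1 crosses the line with vesicles, and Napsa, Lyz2, Slc34a2, Lamp3 and Sftpd lie below it throughout.

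The order of the levels differed between treated and control cells. With deficient vesicles Sftpb was the highest, with 57.1 to 64.6 RPKM against 54.6 to 55.7 RPKM of Lpcat1, followed by Abca3 and Sftpc, whose ranges overlapped. With wild-type vesicles Sftpb and Lpcat1 again led without overlap, followed by Abca3 with 20.5 to 21.3 RPKM and Sftpc with 15.3 to 17.9 RPKM. In control the order was Lpcat1, Abca3, Sftpb and Sftpc, with no overlap between neighbours. Napsa and Lyz2 overlapped with deficient vesicles and in control, while with wild-type vesicles Napsa, at 0.381 to 0.581 RPKM, lay above Lyz2, at 0.216 to 0.27 RPKM. In control the ranges of Sftpa1 and Slc34a2 overlapped as well.

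The lists that follow are read against all 11125 tested genes, of which 48.8% were called higher and 26.5% lower with deficient vesicles, and 45.0% higher and 30.0% lower with wild-type vesicles. After rescaling these shares were 37.8% higher and 37.7% lower with deficient vesicles and 37.9% in each direction with wild-type vesicles.

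Of 9 genes listed for the processing and trafficking of surfactant proteins, 7 were tested. Against control, 4 were higher and 0 lower with deficient vesicles and 4 higher and 2 lower with wild-type vesicles. After rescaling these counts were 2 and 2 with deficient and 3 and 2 with wild-type vesicles. The 2 lower before rescaling were Adam17 and Bri3bp, at -0.12 and -0.17 with wild-type vesicles, named after their values were seen. Being listed does not show that a gene routes surfactant proteins. For so short a list, 4 of 7 is near the 48.8% and 45.0% higher over all tested genes. Their median log2 fold change was 0.19 with deficient vesicles and 0.11 with wild-type vesicles, beside 0.13 and 0.09 over all tested genes. Nedd4l, a ubiquitin ligase that sorts the surfactant protein C precursor, averaged 4.27 ± 0.21 RPKM with deficient vesicles, 4.81 ± 0.48 RPKM with wild-type vesicles and 2.61 ± 0.12 RPKM in control (SD, n = 3 each). Its relative Nedd4 rose by 0.25 with deficient and 0.27 with wild-type vesicles on the log2 scale. Ctsh, cathepsin H, another protease of the surfactant protein B precursor, averaged 75.9 ± 7.7 RPKM with deficient vesicles, 83.8 ± 5.5 RPKM with wild-type vesicles and 66.4 ± 1.2 RPKM in control. The ubiquitin ligase gene Itch was called with both preparations, at log2 fold changes of 0.21 with deficient and 0.11 with wild-type vesicles. After median-of-ratios rescaling neither Itch call remained (adjusted p = 0.188 with deficient and 0.874 with wild-type vesicles), nor did the Ctsh call with deficient vesicles (adjusted p = 0.701).

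Of 18 genes for the biogenesis and traffic of lamellar bodies, all tested, 16 were higher and 0 lower with deficient vesicles and 17 higher and 0 lower with wild-type vesicles, and after rescaling 14 and 0 with deficient and 13 and 1 with wild-type vesicles. Over all tested genes, 48.8% with deficient and 45.0% with wild-type vesicles were called higher. The median log2 fold change of the list was 0.46 with deficient and 0.42 with wild-type vesicles, beside 0.13 and 0.09 over all tested genes. Rab38 was not called with deficient vesicles, and Hps6 with neither preparation. Lyst, which controls the size of lysosome-related organelles, reached 14.9 ± 0.5 RPKM with deficient vesicles and 15.1 ± 0.32 RPKM with wild-type vesicles, against 3.64 ± 0.17 RPKM in control (SD, n = 3 each). The proton pump subunit gene Atp6v0d1 averaged 174 ± 1.9 RPKM with deficient vesicles, 174 ± 5.5 RPKM with wild-type vesicles and 83 ± 0.84 RPKM in control. Lamp2, a lysosomal membrane gene, averaged 62.7 ± 0.95 RPKM with deficient vesicles, 63.8 ± 1.9 RPKM with wild-type vesicles and 31.2 ± 0.97 RPKM in control. Hps1, one of the Hermansky-Pudlak syndrome genes that build lysosome-related organelles, rose by 0.74 with deficient vesicles and 0.62 with wild-type vesicles on the log2 scale. Most of these genes also serve ordinary lysosomes, and 2 of the 18, Hps5 and Atp6v1a, were higher with deficient than with wild-type vesicles, of which 0 after rescaling.

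Genes of phosphatidylcholine and surfactant lipid synthesis were mixed. Of 22 tested, 12 were higher and 3 lower with each preparation against control, and after rescaling 10 and 7 with deficient vesicles and 11 and 5 with wild-type vesicles. That is near the 48.8% higher with deficient and 45.0% with wild-type vesicles over all tested genes. The median log2 fold change was 0.23 with deficient and 0.19 with wild-type vesicles, beside 0.13 and 0.09 over all tested genes. Srebf1, the transcription factor of fatty acid synthesis, averaged 64.9 ± 3.1 RPKM with deficient vesicles, 62.5 ± 0.62 RPKM with wild-type vesicles and 31.7 ± 0.47 RPKM in control (SD, n = 3 each). Cds2, which makes the precursor of phosphatidylinositol, rose by 1.26 with deficient and 1.24 with wild-type vesicles on the log2 scale. Chkb, a choline kinase gene, rose by 0.90 and the desaturase gene Scd2 by 0.86 with deficient vesicles, beside 0.91 for each of them with wild-type vesicles. The 3 lower genes were Chpt1, the last enzyme of phosphatidylcholine synthesis, the elongase gene Elovl6 and the lipid transporter gene Mfsd2a, at -0.27, -0.23 and -0.78 with deficient vesicles and -0.71, -0.29 and -0.86 with wild-type vesicles, and were named after their values were seen. Mfsd2a averaged 0.941 RPKM with wild-type vesicles, under the filter, and entered the test with the help of its 2.53 RPKM in control.

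Of 12 tested genes of secretion, uptake and turnover, 7 were higher and 4 lower with deficient vesicles and 7 higher and 5 lower with wild-type vesicles, all against control, and after rescaling 7 and 5 with either. The shares over all tested genes were 48.8% higher and 26.5% lower with deficient and 45.0% higher and 30.0% lower with wild-type vesicles. The list's median log2 fold change was 0.36 with deficient and 0.50 with wild-type vesicles, beside 0.13 and 0.09 over all tested genes. P2ry2, the purinergic receptor through which ATP triggers surfactant secretion, fell to 0.325 ± 0.028 RPKM with deficient vesicles and to 0.377 ± 0.03 RPKM with wild-type vesicles, against 2.7 ± 0.069 RPKM in control (SD, n = 3 each). P2ry2 passed the filter only through the control libraries, so its entry into the test already required a difference. Prdx6, a peroxiredoxin with phospholipase activity that degrades surfactant lipid, averaged 15.6 ± 1.1 RPKM with deficient vesicles, 14.5 ± 0.38 RPKM with wild-type vesicles and 24.8 ± 0.43 RPKM in control. The lipid scavenger receptor gene Cd36 rose by 1.49 with deficient and by 1.44 with wild-type vesicles on the log2 scale. Anxa7, an annexin of lamellar body fusion, averaged 34 ± 0.62 RPKM with deficient vesicles, 37.9 ± 1.3 RPKM with wild-type vesicles and 25.7 ± 0.075 RPKM in control.

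Among regulators of surfactant genes, 15 were tested, and 9 were higher and 2 lower with each preparation against control, or 8 and 4 with deficient and 8 and 2 with wild-type vesicles after rescaling. Over all tested genes 48.8% were higher and 26.5% lower with deficient vesicles, and 45.0% higher and 30.0% lower with wild-type vesicles. The regulators' median log2 fold change was 0.44 with deficient and 0.35 with wild-type vesicles, beside 0.13 and 0.09 over all tested genes. Nr3c1, the glucocorticoid receptor, averaged 14.7 ± 0.96 RPKM with deficient vesicles, 12.7 ± 0.87 RPKM with wild-type vesicles and 5.31 ± 0.35 RPKM in control (SD, n = 3 each). Etv5, a factor that maintains type 2 cell identity, fell to 7.58 ± 0.9 RPKM with deficient vesicles and to 7.92 ± 0.29 RPKM with wild-type vesicles, against 16.1 ± 0.31 RPKM in control. Nfia, a nuclear factor I gene, rose by 0.70 with deficient and 0.54 with wild-type vesicles on the log2 scale, and Stat3 by 0.55 with each.

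The factors whose motifs were searched are given here for that reason. Nkx2-1 stood at 34.5, 41.9 and 35.2 RPKM with deficient vesicles, at 33.1, 34.7 and 34.7 RPKM with wild-type vesicles, and at 24.8, 24.7 and 22.4 RPKM in control. No treated library overlapped a control, and the log2 fold change was 0.61 with deficient vesicles (limma adjusted p = 2.04e-05) and 0.50 with wild-type vesicles (limma adjusted p = 9.75e-05). Foxa1 averaged 12.1 ± 0.44 RPKM with deficient vesicles, 11.3 ± 0.49 RPKM with wild-type vesicles and 8.63 ± 0.27 RPKM in control (SD, n = 3 each), called higher with both. Foxa2, Gata6 and Cebpb were called in neither comparison with control, at log2 fold changes of -0.12, 0.026 and -0.088 with deficient vesicles and -0.048, 0.066 and 0.077 with wild-type vesicles.

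Of 22 other genes that mark type 2 cells, 11 were under a mean of 1 RPKM, where 50.7% of the whole table was tested. Among those not tested were Sfta2, Chil1, S100g, Muc1 and Cldn18. Of the 11 tested, 5 were higher and 2 lower with deficient vesicles and 6 higher and 2 lower with wild-type vesicles against control, or 5 and 3 with either after rescaling, with a median log2 fold change of 0.17 with deficient and 0.24 with wild-type vesicles. These counts are near the shares of all tested genes called higher, 48.8% with deficient and 45.0% with wild-type vesicles, whose medians were 0.13 and 0.09. Lrp2, the endocytic receptor megalin, fell to 18.6 ± 1.6 RPKM with deficient vesicles and to 22.5 ± 0.38 RPKM with wild-type vesicles, against 86.1 ± 2.7 RPKM in control (SD, n = 3 each). Rnase4, a secreted ribonuclease gene, averaged 22.1 ± 0.93 RPKM with deficient vesicles, 21.7 ± 0.7 RPKM with wild-type vesicles and 10.2 ± 0.18 RPKM in control. Slc39a8, a metal transporter gene with 0.546 RPKM in control, passed the filter only through the vesicle-treated libraries and was higher by 0.67 with deficient and 0.72 with wild-type vesicles on the log2 scale, and Cd74, the invariant chain, rose by 1.35 with deficient and 1.06 with wild-type vesicles.

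**Figure D5:**
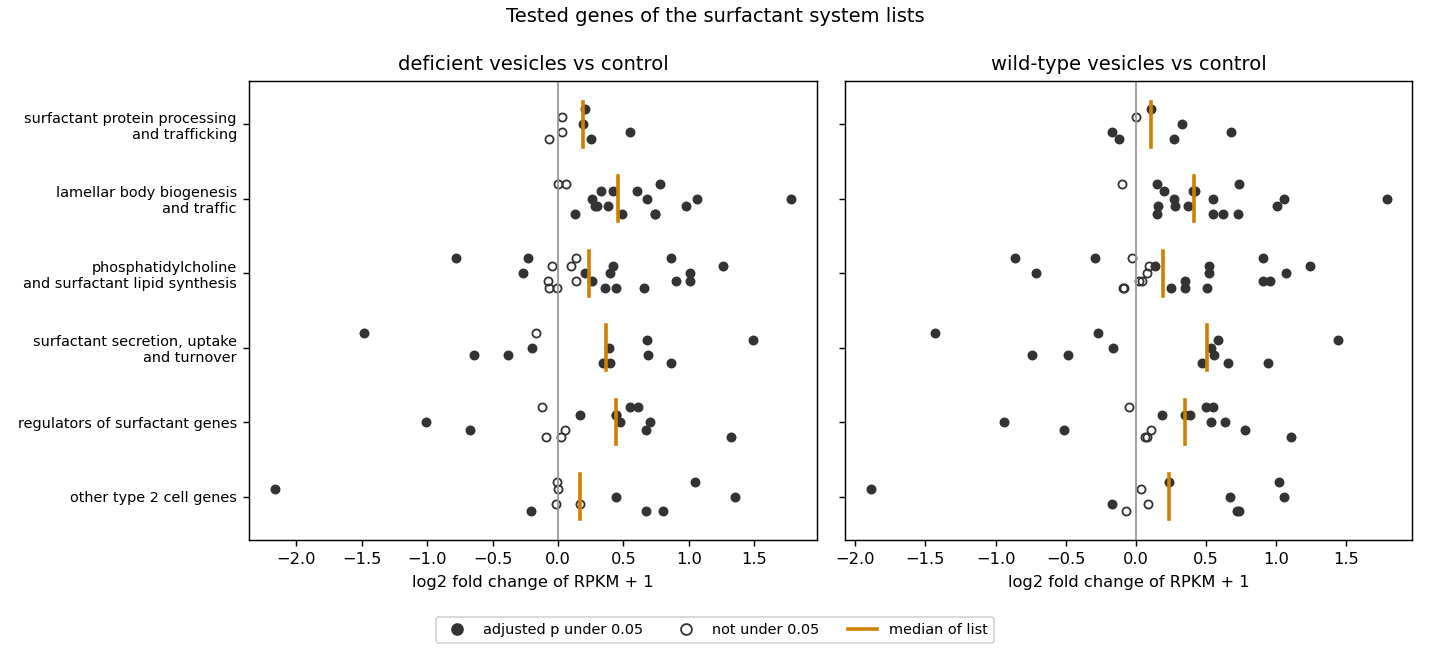
Log2 fold change of RPKM + 1 (horizontal axes) of each tested gene in the 6 lists, for deficient vesicles against control on the left and wild-type vesicles against control on the right. Filled points passed an adjusted p under 0.05, open points did not, and orange lines are list medians. The lamellar body list has no called gene below 0 in either panel (1 with wild-type vesicles after rescaling) and a median of 0.46 with deficient and 0.42 with wild-type vesicles.

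Between deficient and wild-type vesicles, 5 of 85 tested list genes were called higher and 4 lower, where 12.9% of all tested genes were called higher and 5.43% lower. Bri3bp, Hps5, Atp6v1a, Pcyt1a and Chpt1 were higher and Anxa7, Cxcl15, Lgi3 and Lrp2 lower, named after their values were seen, with log2 differences from 0.19 to 0.45 and from -0.27 to -0.15. After rescaling the balance turned. Higher was 1 gene of lipid synthesis, and lower were 3 genes of secretion, uptake and turnover, 1 regulator and 3 other type 2 genes. The processing and lamellar body lists then had no call, and 8.15% of all tested genes were called higher and 8.42% lower. Leaving out wild-type replicate 1, wild-type replicate 2 or deficient replicate 2 left no call in the whole table.

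The genes whose pattern over the 9 libraries was most like that of Sftpb, by root mean square difference of centred log2(RPKM + 1), were Nlrc5 (0.119), Grn (0.135), Ppargc1a (0.139), Eya1 (0.142) and H2-Q4 (0.146). Grn, which encodes the lysosomal protein progranulin, averaged 305 ± 18 RPKM with deficient vesicles, 299 ± 12 RPKM with wild-type vesicles and 72.7 ± 0.35 RPKM in control (SD, n = 3 each). Nlrc5, a transactivator of major histocompatibility class I genes, averaged 7.24 ± 0.83 RPKM with deficient vesicles, 7.19 ± 0.47 RPKM with wild-type vesicles and 0.946 ± 0.072 RPKM in control. Those most like Lpcat1 were Plin3 (0.0359), Als2cl (0.0377), Klf11 (0.0455), Idua (0.0466) and Fam221a (0.0471). Plin3, a lipid droplet coat gene, averaged 73 ± 1.5 RPKM with deficient vesicles, 69.5 ± 4.1 RPKM with wild-type vesicles and 24.4 ± 0.53 RPKM in control. This is a description over 9 libraries of 3 groups, with no test.

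Markers of immune and endothelial cells were at low levels or at 0 in all groups. In the macrophage list, 13 genes including Lyz2, summed levels were 2.64 to 3.2 RPKM with deficient vesicles, 2.19 to 2.6 RPKM with wild-type vesicles and 2.84 to 2.97 RPKM in control. Most of this was Csf1r, with 1.46 RPKM with deficient vesicles, 0.976 RPKM with wild-type vesicles and 1.47 RPKM in control, and Cd68. Cd68 averaged 0.919 RPKM with deficient vesicles, 1.09 RPKM with wild-type vesicles and 0.891 RPKM in control. Marco, Siglecf and Chil3 were listed at 0 in all 9 libraries. Neutrophil sums reached 0.333 RPKM with deficient vesicles, 0.23 RPKM with wild-type vesicles and 0.0761 RPKM in control. Lymphocyte sums reached 0.282 RPKM with deficient vesicles, 0.163 RPKM with wild-type vesicles and 0.16 RPKM in control, and endothelial sums reached 0.214 RPKM with deficient vesicles, 0.219 RPKM with wild-type vesicles and 0.252 RPKM in control. Erythroid sums were 1.63 to 10.5 RPKM with deficient vesicles, 0.423 to 0.532 RPKM with wild-type vesicles and 0.536 to 1.84 RPKM in control. Fibroblast sums were 791 to 917 RPKM with deficient vesicles, 751 to 893 RPKM with wild-type vesicles and 272 to 281 RPKM in control, most of it Dcn, with 787 RPKM with deficient vesicles, 787 RPKM with wild-type vesicles and 195 RPKM in control. Col1a1 went the other way, with 45.7 RPKM with deficient vesicles, 46.5 RPKM with wild-type vesicles and 79.3 RPKM in control, and Col3a1 was at 0 or near it in every library. Airway sums were 13.8 to 15.1 RPKM with deficient vesicles, 18.1 to 22.2 RPKM with wild-type vesicles and 25.7 to 26.7 RPKM in control. Most of this was Muc5b, with 12.8 RPKM with deficient vesicles, 18.8 RPKM with wild-type vesicles and 25.7 RPKM in control. Foxj1 went the other way, with 1.51 RPKM with deficient vesicles, 1.17 RPKM with wild-type vesicles and 0.191 RPKM in control. Alveolar type 1 sums were 327 to 348 RPKM with deficient vesicles, 299.6 to 330 RPKM with wild-type vesicles and 278 to 286 RPKM in control, mostly Aqp5, and its members moved apart. Ager averaged 31.1 RPKM with deficient vesicles, 28.1 RPKM with wild-type vesicles and 5.05 RPKM in control, and Hopx 45.9 RPKM with deficient vesicles, 41.9 RPKM with wild-type vesicles and 25 RPKM in control. Pdpn averaged 26.7 RPKM with deficient vesicles, 26.7 RPKM with wild-type vesicles and 39.4 RPKM in control. The part of RNA carried by the vesicles in the levels of any gene was not tested.

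The epithelial label was also uneven in its markers. Epcam was listed at 0 in all 9 libraries, and Cdh1 averaged 0.157 RPKM with deficient vesicles, 0.164 RPKM with wild-type vesicles and 1.38 RPKM in control. Krt8 averaged 162 RPKM with deficient vesicles, 179 RPKM with wild-type vesicles and 337 RPKM in control, and its partner keratin Krt18 averaged 0.723 RPKM with deficient vesicles, 0.562 RPKM with wild-type vesicles and 0.297 RPKM in control. Of the 8 type 2 markers, Sftpb, Sftpc and Abca3 were above 1 RPKM in all groups, Sftpa1 only with vesicles, and Sftpd, Lamp3, Slc34a2 and Napsa in none.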

How the data were processed

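RNA of MLE-12 cells was isolated with Trizol and made into libraries with the TruSeq Stranded mRNA kit, per the labels' protocols. The authors deposited 1 table of RPKM with 9 sample columns, per the file headers. TopHat2 (version 2.0.7) and the builds GRCm38 and mm10 are named in the submitters' processing notes. The read counter, its strand setting and the annotation release are not given in the sources used here. Control columns are headed with the line's name and a digit, and were taken as control because the other columns name the vesicle groups. All value columns were used, leaving 0 unused.

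RPKM of low genes came in whole multiples of what 1 read is worth, from which library totals and reads were recovered for 18197 of 18207 genes above 0 (99.9%, tolerance 0.01). On simulated data 96.1% of 1953 genes were recovered exactly. Differences were fitted with limma (version 3.58.1, R 4.3.3) on log2(RPKM + 1) for genes with a mean of at least 1 RPKM, 3 groups in 1 fit, with a variance trend and Benjamini-Hochberg adjustment over 11125 genes. The script was tested on simulated data. Errors are SD for RPKM and SE for log2 fold changes. Gene coordinates come from GENCODE release M21 on GRCm38 and promoter sequences from RefSeq (GRCm38.p6). Poisson intervals (95%) and the limit of 3 reads cover counting error only.

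The members and lists were chosen with earlier results of these data known. Besides the members, up to 4 genes per list with the smallest p in any comparison are named, with the other exceptions stated where they occur. For Sftpb and Lpcat1, the 5 tested genes with the most alike pattern are given. Alternatives were other pseudocounts (0.1 and 0.01), no filter or a mean of at least 5 RPKM, median-of-ratios scaling, voom on recovered reads, only the groups compared, a replicate block, and leaving out libraries.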

Additional observations from a re-analysis of the deposited data

Results flagged for a closer look

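Anxa7 and Lrp2, genes of the surfactant lists, differed between the vesicle preparations by a test of that difference. Only the 10 genes and the list genes named for their smallest p were screened here. Other list genes called in this comparison are named above, among them Chpt1 with a larger difference of 0.45. Over all tested genes, 12.9% were called higher and 5.43% lower between the preparations. Anxa7 was at 34.6, 33.9 and 33.4 RPKM with deficient vesicles and at 37.2, 39.3 and 37 RPKM with wild-type vesicles, a log2 difference of -0.15 (SE 0.038, limma adjusted p = 0.0323). It was called in 7 of 18 alternatives, with adjusted p from 0.00606 to 0.484. Lrp2 was at 20.3, 17.2 and 18.3 RPKM with deficient vesicles and at 22.7, 22.1 and 22.8 RPKM with wild-type vesicles, a log2 difference of -0.27 (SE 0.056, limma adjusted p = 0.0258). It was called in 10 of 18 alternatives, with adjusted p from 0.00673 to 0.429. Groups of 3 libraries are too small for a test of single outlying samples.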

How the results depend on the processing

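Against control, the direction and call of Sftpb, Sftpc, Sftpa1, Lpcat1 and Abca3 held wherever they were tested, in all 84 values from alternatives run for deficient vesicles and all 84 for wild-type vesicles. Leaving out single libraries gave 5 genes higher in each comparison with control, and a mean of at least 5 RPKM gave 4, since Sftpa1 is then not tested. Between deficient and wild-type vesicles, the count of genes called over the whole table was 2042. It was 1 without a filter on low values, 0 with only the 6 libraries compared, 1 with the replicate block and 0 without wild-type replicates 1 and 2. Leaving out single libraries gave between 0 and 4686 calls. The number of the 10 genes called higher between the preparations was between 0 and 1 on leaving out single libraries, the 1 being Lpcat1 without wild-type replicate 3. The cause of these shifts was not tested. The log2 difference between deficient and wild-type vesicles changed sign without being called for Sftpa1 (0.024 without wild-type replicates 1 and 2), for Sftpb (between -0.089 and 0.06 on leaving out single libraries, with 0.06 without wild-type replicate 3 and 0.0047 without deficient replicate 3) and for Abca3 (-0.031 after median-of-ratios scaling, between -0.0032 and 0.022 on leaving out single libraries, with -0.0032 without wild-type replicate 1, and -0.0042 without wild-type replicates 1 and 2). Rescaling moved the share of higher genes among calls between the preparations to 49.2%, against 70.4% before, a near-even split that largely follows from this scaling. The deviations of same-numbered libraries from their group means correlated at 0.11, -0.127 and 0.0355 over genes. Those of differently numbered libraries correlated at -0.165 to 0.163. This shows no shared effect of a number but cannot exclude pairing, and the labels do not say whether equal numbers share a culture or batch. No paired analysis was possible for the comparisons with control because the digits that head the control columns are not tied to any sample title. Depth limits Sftpd, Lamp3 and Slc34a2, with at most 19 reads per group, and Sftpa1 in control with 17.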
